A study of Drosophila melanogaster with 21 samples.

Results

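Plasmatocytes are the macrophage-like blood cells (hemocytes) of Drosophila melanogaster. They recognise bacteria and dying cells through surface receptors of the Nimrod, scavenger receptor and CD36 families, and they secrete clotting factors and extracellular matrix proteins. Some of these receptors are also known from other engulfing cells, such as the glia of the nervous system, and S2 cells are an embryonic line that is commonly described as hemocyte-like. The 10 genes described here, chosen by name as plasmatocyte receptors and markers, were NimC1, NimC2, NimC4, eater, Hml, Sr-CI, crq, drpr, Pxn and He. They were among 13955 genes in the brain and ovary tables and 11010 genes in the S2 table, and each was found in both.

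RNA was measured in 21 libraries after loss of CG11247 (Saft), a transcription factor. Brains and ovaries came from females 3 to 4 days old that had mated, with 40 brains or 5 ovary pairs pooled per library. Mutant 1 carried a frame-shift deletion in exon 1 and mutant 2 an independent one in exon 2, both made by CRISPR-Cas9 in isogenised white flies, and the wild type was the white parent strain. The labels write each mutant allele over the TM3, Sb balancer chromosome. They do not say whether the dissected females still carried that balancer. There were 2 brain and 3 ovary libraries per genotype. In S2 cells both copies of CG11247 carried a FLAG-AID tag, which lets auxin trigger degradation of the protein in the presence of OsTir1. All S2 groups were that tagged line, with 2 libraries each from cells given solvent only (untreated) or 500 µM auxin for 24 h or 48 h. The labels do not say whether the line is 1 clone.

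Levels are given as CPM, counts relative to the library total (per M), scaled between libraries by the TMM method. Total counts were 39.0 to 45.6 M per library in brain, 14.1 to 21.5 M in ovary and 6.4 to 9.1 M in S2 cells. CG11247 RNA averaged 65.9 CPM in mutant 1 brains, 107 CPM in mutant 2 brains and 87.8 CPM in wild-type brains. In ovaries it averaged 30.1 CPM in mutant 1, 72.6 CPM in mutant 2 and 62.8 CPM in wild type. RNA level does not test a frame-shift or the degradation of a protein, so these values are no check of the loss itself. Markers fitted the labelled tissues: the neuronal gene nSyb averaged 1321 CPM in wild-type brains and the oocyte gene osk 1242 CPM in wild-type ovaries. Untreated S2 cells had the hemocyte transcription factors srp and ush at 76.7 and 338 CPM, the growth factor receptor Pvr at 1237 CPM, and crystal cell markers of at most 2.13 CPM summed over 4 genes. In the ovary 1 library of each genotype (wild type library 2, mutant 1 library 1 and mutant 2 library 3) stood apart on the second principal component. Ovary results are given without these 3 where that changes a call. Leaving them out was chosen after seeing the data.

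In build BDGP6, NimC1 (2L:13973158-13976769), NimC2 (2L:13980126-13983269), NimC4 (2L:14047582-14048863) and He (2L:13972096-13972947) lie near one another on chromosome arm 2L. Sr-CI and crq lie elsewhere on 2L, eater on 3R, and Hml, drpr and Pxn on 3L. Exons of 5 of the 10 genes overlap exons of another gene, and no source used here says whether reads were assigned by strand, so their counts may include reads of a neighbour. These are NimC2 with rk, crq with ex, Pxn with CG16986 and lncRNA:CR45660, He with NimB5, and drpr with Oseg4. NimC4 overlaps the span of nAChRalpha5 on the same strand, without overlap of exons. Whether intron reads of nAChRalpha5 entered the NimC4 counts was not tested.

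Wild-type brain held far more RNA of 7 of these genes than wild-type ovary, from Pxn at 32.9-fold to NimC4 at no less than 296-fold, while the engulfment receptors drpr and crq were within a few-fold of each other in both tissues. Of 9 tested genes, 8 were higher in brain and 1, crq, was lower, while 46.8% of all 10029 tested genes were higher and 42.8% lower, so a call by itself says little here and the sizes matter more. NimC2, NimC4 and eater had too few counts to be tested within ovary and entered this joint fit through their brain counts. For them the direction was set by that filter, and both the count of calls and the median include them. The median log2 difference, brain over ovary, was 7.13 over these 9 genes and 0.10 over all tested genes. Another scaling (RLE) shifted the median of all genes by 0.17, and no member changed direction with it. The CPM values were scaled within each tissue, whereas log2 differences and folds between tissues use a joint scaling of both, so they are not the ratios of the printed CPM.

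Hml, which encodes hemolectin, a large clotting protein of the hemolymph, had 428 and 368 CPM in the wild-type brain libraries, against 1.72, 3.03 and 2.23 CPM in the wild-type ovary libraries. The groups were far apart, and counts summed over the group were 269-fold higher in brain in the joint scaling of both tissues. The phagocytosis receptor NimC1 had 42.8 and 39.3 CPM in brain, against 0.345, 0.369 and 0.597 CPM in ovary. This was a 141-fold difference in summed counts. The related receptor NimC2 and the bacterial receptor eater rested on 8 and 7 counts over the 3 wild-type ovary libraries and were 196-fold and 206-fold higher in brain.

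NimC4, a receptor for dying cells known in macrophages and glia, had 11.1 and 13.4 CPM in brain and no count in any wild-type ovary library. Against a floor of 3 counts over the group, it was at least 296-fold higher in brain. He, a surface glycoprotein of hemocytes, had only 24 counts over both wild-type brain libraries and none in wild-type ovaries, which allows at least 6.65-fold. It was near its detection limit everywhere and passed no low-count filter. Such bounds cover counting error only.

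Sr-CI, a class C scavenger receptor, was 38.5-fold higher and Pxn, a peroxidase that crosslinks basement membrane collagen, 32.9-fold higher in brain in summed counts. Pxn had 364 and 346 CPM in brain, against 13.7, 18.8 and 17.7 CPM in ovary. Neither gene overlapped between tissues. The engulfment receptors drpr and crq stood apart from the other members. For drpr, which glia and ovarian follicle cells are known to use, the levels were 165 and 164 CPM in brain, against 114, 99.0 and 114.8 CPM in ovary. The log2 difference was 1.23 ± 0.07 (SE, adjusted p = 1.78e-10 by edgeR's quasi-likelihood test with Benjamini-Hochberg adjustment). The CD36 family member crq had 94.5 and 95.1 CPM in brain, against 205, 189 and 201 CPM in ovary. Its log2 difference was -0.43 ± 0.06 (SE, edgeR adjusted p = 2.8e-06), and -0.25 with RLE scaling.

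Per kb of the longest transcript, Pxn had the highest mean level of the 10 genes in wild-type brain (68.3 CPM per kb), followed by drpr (34.6), crq (34.2) and Hml (33.9), and these 3 differed by less than the spread of Hml between libraries. NimC1 (13.7), NimC4 (9.57), NimC2 (7.67), Sr-CI (7.01) and eater (6.03) followed, with NimC2 and Sr-CI closer than the spread of Sr-CI, and He was lowest (0.411). In wild-type ovary the order was crq (71.4 CPM per kb), drpr (23.0) and Pxn (3.23), with the others at 0.291 or less.

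**Figure D1:**
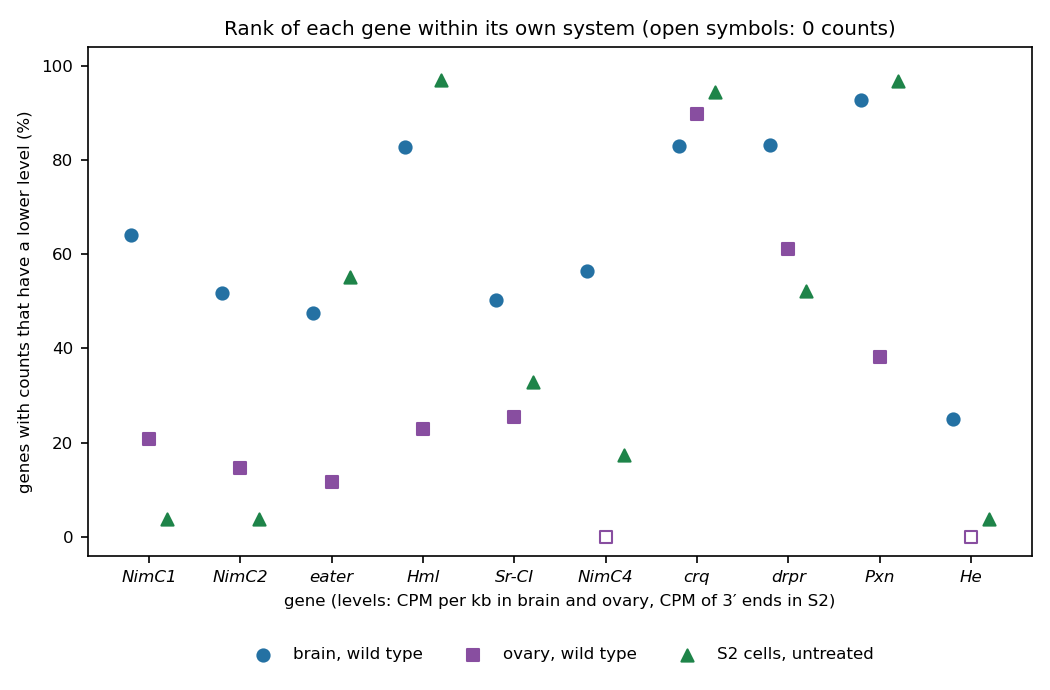
The percent of genes with counts that had a lower level is plotted for each gene in wild-type brain (circles, CPM per kb), wild-type ovary (squares, CPM per kb) and untreated S2 cells (triangles, CPM of 3′ ends). In brain 9 of the 10 genes lie at 47.6% or higher, in ovary crq (89.7%) and drpr (61.2%) lie highest, and in S2 cells Hml, Pxn and crq lie at 94.4% or higher while NimC1, NimC2 and He lie at 3.82%.

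S2 cells held some of these genes at high level and others at almost none. The S2 libraries read 3′ ends and were not scaled with the tissues, so only ranks within each system are set side by side and none is tested. Hml averaged 446 ± 273 CPM (SD, n = 2) in untreated S2 cells, above 97.0% of genes with counts. It stood above 82.8% of genes in wild-type brain and 22.8% in wild-type ovary. Pxn averaged 408 ± 163 CPM and crq 239 ± 18.2 CPM (SD, n = 2), above 96.8% and 94.4% of S2 genes.

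The receptors eater (15.02 ± 6.29 CPM) and drpr (12.8 ± 10.6 CPM) lay near the middle of untreated S2 genes, above 55.3% and 52.3%. Sr-CI was lower, at 2.37 ± 0.12 CPM (SD, n = 2 for each of these genes). NimC4 had 0 and 4 counts in the untreated libraries. NimC1, NimC2 and He had 1 count each over both, so these 3 markers were at or below the floor of 3 counts in a line otherwise rich in Hml and Pxn. These counts are of the isoform with the most counts. Over all 6 S2 libraries that isoform of NimC1 had 7 counts, and its 3 isoforms together had 18, which may share reads.

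In brain, 5 of the 10 genes fell in both mutants, NimC1, NimC2, eater, Hml and Sr-CI, to between 45.8% and 69.2% of the wild-type mean. The other 4 tested genes, NimC4, crq, drpr and Pxn, did not pass the test in either mutant, and He had too few counts to be tested. Of all 9880 tested genes 0.759% were called lower in mutant 1, 0.729% in mutant 2 and 0.516% in both. The median log2 change of the 9 tested members was -0.53 in mutant 1 and -0.68 in mutant 2, against a median of -0.00 over all tested genes in each. Both mutants were set against the same 2 wild-type libraries. In whole tissue, fewer cells of a type and less RNA per cell cannot be told apart.

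**Figure D2:**
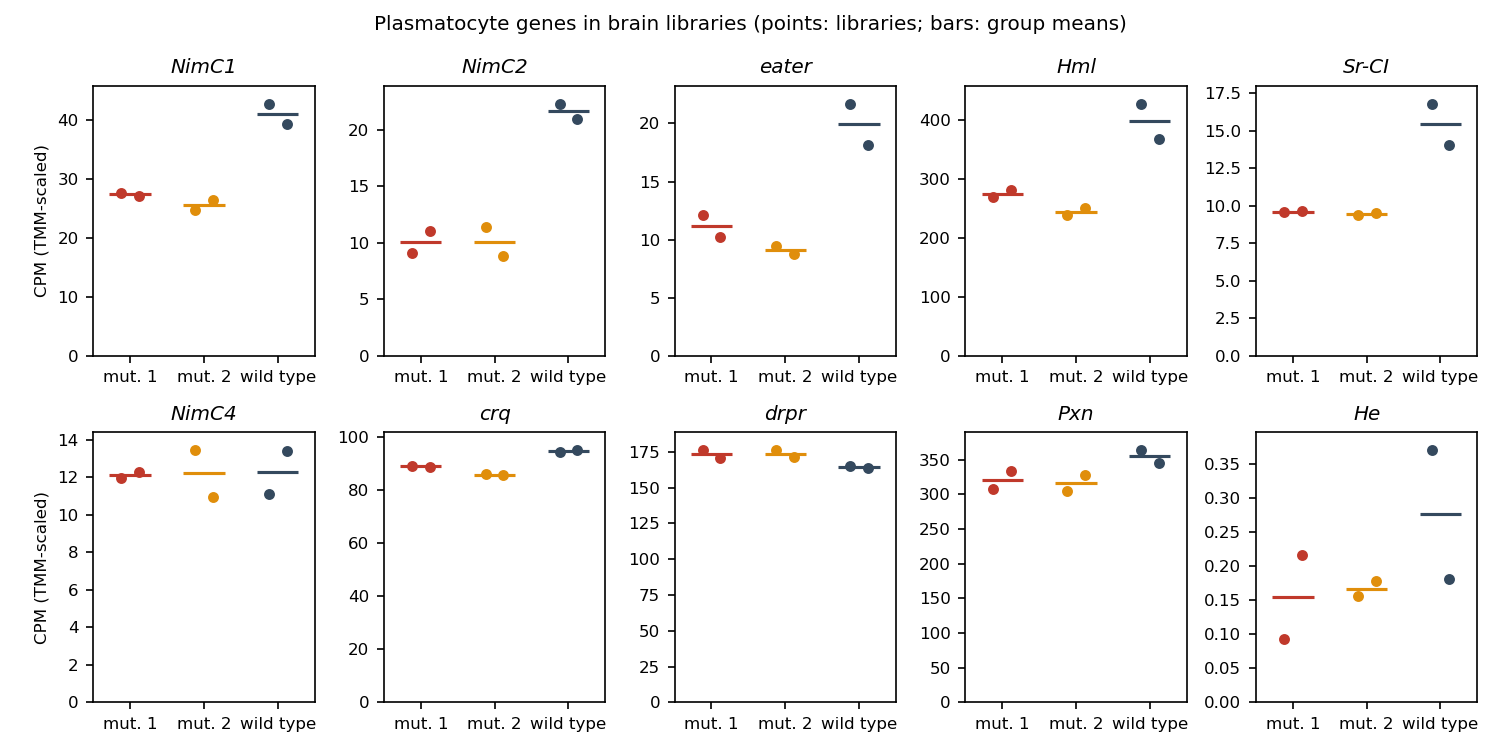
CPM of each of the 10 genes in the brain libraries, with mutant 1, mutant 2 and wild type from left to right (points are libraries, bars are group means, each axis starts at 0). In the upper row (NimC1, NimC2, eater, Hml and Sr-CI) all 4 mutant libraries lie below both wild-type libraries, as for NimC1 at 24.8 to 27.6 CPM against 39.3 and 42.8 CPM.

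NimC1 had 27.6 and 27.2 CPM in mutant 1 brains and 24.8 and 26.4 CPM in mutant 2 brains, against 42.8 and 39.3 CPM in wild-type brains. All mutant libraries lay below both wild-type ones. The log2 change was -0.58 ± 0.07 in mutant 1 and -0.68 ± 0.07 in mutant 2 (SE), with edgeR adjusted p-values of 0.00131 in mutant 1 and 0.000457 in mutant 2.

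NimC2 showed one of the largest falls of the group. It had 9.06 and 11.01 CPM in mutant 1 and 11.4 and 8.81 CPM in mutant 2, against 22.3 and 20.95 CPM in wild type. The mutant libraries lay well below the wild-type ones and the 2 mutants overlapped each other. The log2 change was -1.11 ± 0.14 in mutant 1 and -1.10 ± 0.14 in mutant 2 (SE), with edgeR adjusted p-values of 0.00358 in mutant 1 and 0.00334 in mutant 2. Its overlapping neighbour rk, a hormone receptor, had a log2 change of -0.05 ± 0.10 (SE) in each mutant and did not pass the test.

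The receptor eater, which binds bacteria and helps hemocytes attach to tissue, had 12.1 and 10.2 CPM in mutant 1 and 9.48 and 8.76 CPM in mutant 2, against 21.7 and 18.1 CPM in wild type. No mutant library reached the lower wild-type one. Its log2 change was -0.83 ± 0.12 in mutant 1 and -1.13 ± 0.12 in mutant 2 (SE), with edgeR adjusted p-values of 0.00543 in mutant 1 and 0.00085 in mutant 2.

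Hml, the most abundant of the 5 in CPM, had 270.2 and 281 CPM in mutant 1 and 239 and 251 CPM in mutant 2, against 428 and 368 CPM in wild type. The gap between the groups exceeded the spread within each. Its log2 change was -0.53 ± 0.07 in mutant 1 and -0.70 ± 0.07 in mutant 2 (SE), with edgeR adjusted p-values of 0.00522 in mutant 1 and 0.000858 in mutant 2. Sr-CI had 9.60 and 9.64 CPM in mutant 1 and 9.41 and 9.50 CPM in mutant 2, against 16.8 and 14.1 CPM in wild type. The mutant libraries were nearly level with one another and below both wild-type libraries. Its log2 change was -0.68 ± 0.10 in mutant 1 and -0.71 ± 0.10 in mutant 2 (SE), with edgeR adjusted p-values of 0.00784 in mutant 1 and 0.00609 in mutant 2.

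With only 2 libraries per genotype, 3 calls in mutant 1 depended on a single mutant library. Without mutant 1 library 1 the edgeR adjusted p was 0.0679 for Hml and 0.0785 for Sr-CI, and without mutant 1 library 2 it was 0.0508 for eater and 0.0692 for Sr-CI. In mutant 2 all 5 were called whichever single library was left out.

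The 2 receptors that act together in clearing dying cells did not pass the test. NimC4 had 12.0 and 12.3 CPM in mutant 1 and 13.5 and 10.97 CPM in mutant 2, against 11.1 and 13.4 CPM in wild type. The genotypes overlapped, and the log2 change was -0.01 ± 0.12 in mutant 1 and -0.00 ± 0.12 in mutant 2 (SE). For drpr, the receptor that takes up the debris, the levels were 176 and 171 CPM in mutant 1 and 176 and 171 CPM in mutant 2, against 165 and 164 CPM in wild type. All mutant libraries were slightly above the wild-type ones, but the log2 change of 0.08 ± 0.05 in each mutant did not pass the test (SE, edgeR adjusted p = 0.791 in mutant 1 and 0.650 in mutant 2).

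For crq, the levels were 89.2 and 88.7 CPM in mutant 1 and 85.9 and 85.5 CPM in mutant 2, against 94.5 and 95.1 CPM in wild type. Its log2 change was -0.09 ± 0.05 in mutant 1 and -0.15 ± 0.05 in mutant 2 (SE), with edgeR adjusted p-values of 0.673 in mutant 1 and 0.238 in mutant 2. Pxn had 308 and 334 CPM in mutant 1 and 306 and 329 CPM in mutant 2, against 364 and 346 CPM in wild type. Its log2 change was -0.15 ± 0.06 in mutant 1 and -0.16 ± 0.06 in mutant 2 (SE), with edgeR adjusted p-values of 0.526 in mutant 1 and 0.346 in mutant 2. Both genes lay below wild type in all 4 mutant libraries, by less than the 5 called genes did. He had 13 counts in mutant 1 and 14 in mutant 2, against 24 in wild type, summed over 2 libraries each, too few for a test.

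**Figure D3:**
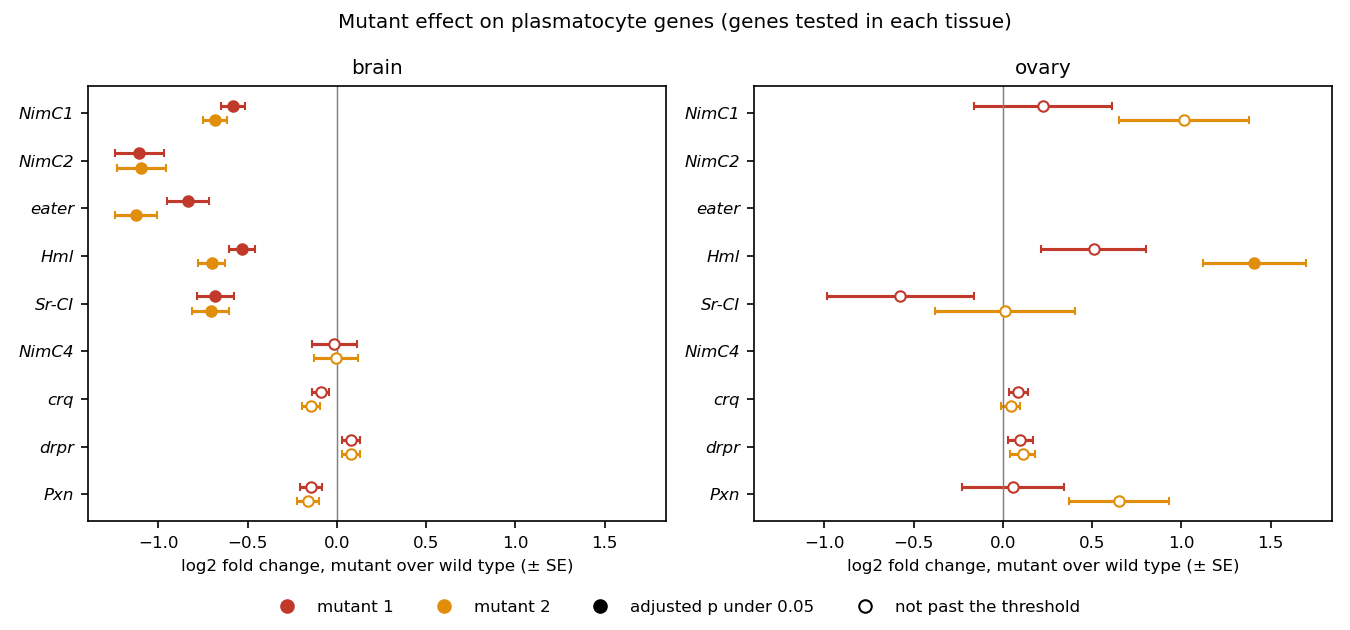
The log2 fold change of each tested gene, mutant over wild type, is plotted for brain (left) and ovary (right), with bars of 1 SE. Filled points pass an adjusted p of 0.05 in edgeR. In brain NimC1, NimC2, eater, Hml and Sr-CI lie left of 0 in both mutants, and in ovary Hml in mutant 2 is the filled point, at 1.41.

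Genes that accompany plasmatocytes moved with them in part. Among 10 other hemocyte markers, 4 fell in mutant 1 and 3 in mutant 2, and none was called higher. Of all tested genes, 0.759% fell in mutant 1 and 0.729% in mutant 2. The collagen IV chains Col4a1 (log2 change -0.46 in mutant 1 and -0.51 in mutant 2) and vkg (-0.34 and -0.39) and the matrix protein Ppn (-0.56 and -0.68) fell in both mutants. SPARC, another matrix protein, fell in mutant 1 alone of the 2 tests (-0.41 ± 0.08, SE, edgeR adjusted p = 0.0442). The hemocyte regulators srp, ush, gcm and gcm2, and Glt and Pvr, did not pass the test. Pvr went the other way, at means of 59.7 CPM in mutant 1 and 58.0 CPM in mutant 2, against 53.6 CPM in wild type. The summed level of this list was 2957 and 3086 CPM in mutant 1 and 2808 and 2999 CPM in mutant 2, against 4325 and 3837 CPM in wild type. Most of this sum lay in Col4a1, vkg and Ppn, which averaged 1561, 1055 and 1094 CPM in wild type.

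Markers of other cells also differed between the brain groups. The summed level of 8 fat body markers was 5767 and 5085 CPM in mutant 1 and 5803 and 5207 CPM in mutant 2, against 7082 and 6244 CPM in wild type. Most of the difference in this sum lay in Obp44a, an odorant-binding protein gene, which averaged 1064 CPM in mutant 1 and 1282 CPM in mutant 2, against 1879 CPM in wild type, and was called in mutant 1. Its log2 difference between wild-type brain and ovary was 14.7, against 1.51 to 7.08 for the other tested genes of this list. Whether Obp44a marks fat body in these brain samples was not tested. FASN1, a fatty acid synthase, averaged 1916 CPM in mutant 1 and 1844 CPM in mutant 2, against 1899 CPM in wild type. The lipid carrier apolpp averaged 2160 CPM in mutant 1 and 2039 CPM in mutant 2, against 2361 CPM in wild type, and neither of these was called. Lsp2 averaged 286 CPM in mutant 1 and 338 CPM in mutant 2, against 519 CPM in wild type, and was not called either. Fbp1 and Lsp1gamma, a storage protein receptor and a storage protein, fell by over 2 on the log2 scale in both mutants, at means of at most 2.76 CPM in any brain group. The 4 crystal cell markers summed to 118 and 113 CPM in mutant 1 and 125 and 122 CPM in mutant 2, against 228 and 154 CPM in wild type, and none was called. For 8 glial markers the sums were 4995 and 5130 CPM in mutant 1 and 5145 and 5528 CPM in mutant 2, against 5627 and 5827 CPM in wild type, with nrv2 called lower in mutant 1. The 8 neuronal markers summed to 10370 to 10820 CPM in mutant 1, 10040 to 11130 CPM in mutant 2 and 10330 to 10520 CPM in wild type, with none called. The part of these cell types in the changes of the plasmatocyte genes was not tested.

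The other genes of recognition and uptake in brain mostly did not pass the test. None of 13 engulfment signalling genes, such as Ced-6 and Rac1, and none of the 7 other CD36 family genes was called in either mutant. Of 17 other Nimrod and scavenger receptors and opsonins, 13 were tested. The secreted thioester protein Tep3 rose in mutant 1 (log2 change 2.37 ± 0.07, SE) and mutant 2 (2.38 ± 0.07). NimB5, a secreted Nimrod protein, fell in mutant 2 (-0.74 ± 0.15, SE, edgeR adjusted p = 0.0301) and had -0.58 ± 0.14 in mutant 1 (adjusted p = 0.101). Of 5 lamellocyte markers, the surface protein gene atilla rose in both mutants (0.72 ± 0.10 and 0.74 ± 0.10, SE).

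In ovary, Hml rose in mutant 2, and no other tested member passed the test in either mutant. NimC2, NimC4, eater and He had too few counts, so 6 of the 10 genes were tested. In mutant 1 none of the 6 was called, where 23.5% of all 8312 tested genes were called. In mutant 2 the 1 called member compares with 8.77% of all genes called higher and 16.1% called in either direction, so the member count is near that background. At an unadjusted p under 0.05, 3191 of all genes passed in mutant 1 and no member did.

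Hml had 3.78, 3.44 and 2.71 CPM in mutant 1 and 5.49, 8.70 and 4.26 CPM in mutant 2, against 1.72, 3.03 and 2.23 CPM in wild type. The mutant 2 libraries lay above all others, while mutant 1 overlapped wild type. These levels rest on 59 to 63 counts per library in mutant 1, 72 to 176 in mutant 2 and 25 to 41 in wild type. The log2 change was 0.51 ± 0.29 in mutant 1 and 1.41 ± 0.29 in mutant 2 (SE), with edgeR adjusted p-values of 0.224 in mutant 1 and 0.00766 in mutant 2.

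NimC1 had 0.732, 0.437 and 0.413 CPM in mutant 1 and 1.06, 0.889 and 0.769 CPM in mutant 2, against 0.345, 0.369 and 0.597 CPM in wild type. Mutant 2 lay above wild type in every library, but on 13 to 21 counts each, and the log2 change of 1.02 ± 0.36 did not pass the test (SE, edgeR adjusted p = 0.0747). Pxn had 21.1, 16.02 and 15.3 CPM in mutant 1 and 26.8, 35.7 and 16.2 CPM in mutant 2, against 13.7, 18.8 and 17.7 CPM in wild type. Mutant 2 library 3 lay within the wild-type range and the other 2 above it. Its log2 change in mutant 2 was 0.65 ± 0.28 (SE, edgeR adjusted p = 0.147). Without mutant 2 library 3 it was 0.90 (edgeR adjusted p = 0.0143), and without the 3 libraries that stand apart, 0.98 (adjusted p = 0.00542). Both runs leave out the mutant 2 library with the lowest Pxn.

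**Figure D4:**
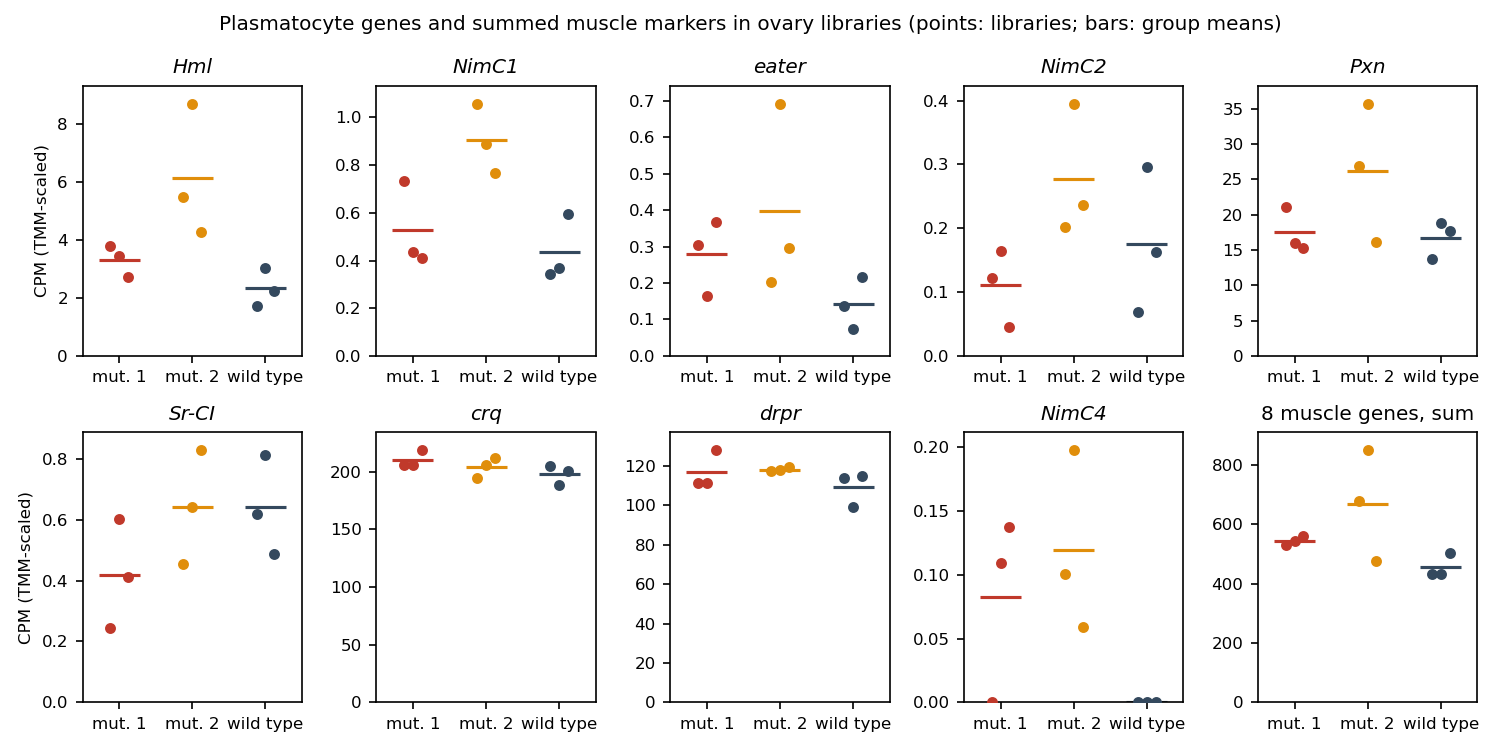
CPM of 9 of the genes and the summed CPM of 8 muscle markers in the ovary libraries, with mutant 1, mutant 2 and wild type from left to right (points are libraries, bars are group means, each axis starts at 0). Hml is highest in mutant 2 library 2 at 8.70 CPM, where the muscle sum is also highest at 849 CPM. NimC4 has no count in wild type.

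Muscle genes ranked the mutant 2 libraries in the same order as Hml and Pxn did, but not those of the other genotypes. The muscle markers Mlc2, up and wupA rose in mutant 2 (log2 changes 0.75 ± 0.21, 0.82 ± 0.18 and 0.75 ± 0.16, SE). These were 3 of 7 tested muscle markers, and the others were not called. Of all tested genes, 8.77% were called higher in mutant 2. The 8 muscle markers summed to 529, 545 and 560 CPM in mutant 1 and to 679, 849 and 477 CPM in mutant 2, against 433, 433 and 503 CPM in wild type, for libraries 1, 2 and 3 in turn. In mutant 1 the sum was lowest where Hml and Pxn were highest, in library 1. In wild type it was highest in library 3, while Hml and Pxn were highest in library 2. Without mutant 2 libraries 1 and 2 the log2 change of Hml was 0.87 and that of Pxn -0.06. These 2 libraries held the highest Hml and Pxn of mutant 2, so smaller changes without them were set by that choice. Leaving out those libraries was chosen after seeing the data and leaves 1 mutant 2 library, which is assumed to vary like the others. The part of muscle in the rise of Hml was not tested.

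The remaining members showed little or were near 0 in ovary. For crq the levels were 206, 206 and 219 CPM in mutant 1 and 194, 206 and 212 CPM in mutant 2, against 205, 189 and 201 CPM in wild type. For drpr they were 111, 111 and 128 CPM in mutant 1 and 117, 118 and 119 CPM in mutant 2, against 114, 99.0 and 114.8 CPM in wild type. Their log2 changes lay between 0.04 and 0.11 and did not pass the test. Sr-CI had a log2 change of -0.57 ± 0.41 in mutant 1 and 0.01 ± 0.39 in mutant 2 (SE), on 4 to 14 counts per library. The untested eater had 16 counts in mutant 1 and 23 in mutant 2, against 7 in wild type, summed over 3 libraries each. NimC4 had 5 and 7 counts in mutants 1 and 2 and 0 in wild type, and NimC2 6 and 16 counts, against 8 in wild type. He had no count in any ovary library.

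Hemocyte genes outside the 10 were split in ovary. The crystal cell enzymes PPO1 (log2 change 0.92 ± 0.28 in mutant 1 and 1.86 ± 0.28 in mutant 2, SE) and PPO2 (0.95 ± 0.26 and 1.48 ± 0.25) rose in both mutants. These were 2 of 4 crystal cell markers, of which 3 were tested, while 7.4% of all tested genes rose in both mutants. In wild type both lay far below their brain level, with log2 differences, brain over ovary, of 6.51 for PPO1 and 6.96 for PPO2. The sum of the 4 overlapped between genotypes. It was 78.8 to 93.9 CPM in mutant 1 and 76.7 to 98.8 CPM in mutant 2, against 81.7 to 88.5 CPM in wild type. Ppn rose in mutant 2 (1.25 ± 0.20, SE) and vkg fell in mutant 1 (-0.94 ± 0.25). The summed level of the 10 other hemocyte markers was 559 to 628 CPM in mutant 1 and 501 to 854 CPM in mutant 2, against 859 to 887 CPM in wild type. Mutant 1 lay below wild type in every library, while mutant 2 library 1, at 854 CPM, was nearly level with the lowest wild-type library. Of 8 tested other receptor and opsonin genes, 5 rose in both mutants, where 7.4% of all genes did: Tep3 (5.78 and 5.87), Tep2 (1.95 and 1.85), Dscam1 (1.85 and 2.07), PGRP-LC (1.52 and 1.49) and Itgbn (1.23 and 1.198). Follicle cell markers summed to 8525 to 9621 CPM in mutant 1 and 6500 to 8124 CPM in mutant 2, against 13340 to 14250 CPM in wild type, and the part of this shift in the changes above was not tested.

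The mutant effect itself, the mean of both mutants over wild type, differed between brain and ovary for 3 members. The difference of log2 effects, brain minus ovary, was -1.61 ± 0.29 for Hml (SE, edgeR adjusted p = 0.00549), -1.26 ± 0.26 for NimC1 (adjusted p = 0.0103) and -2.14 ± 0.53 for eater (adjusted p = 0.0272). Of all 10029 tested genes, 3.67% were called lower in this comparison. NimC2, NimC4 and eater had too few counts to be tested within ovary. They entered this joint fit through their brain counts, so their ovary side is poorly measured. The call for Hml was kept under every alternative run, with a difference of -1.85 to -1.34. That of NimC1 was lost without wild-type ovary library 1 (adjusted p = 0.0567), and those of both NimC1 (adjusted p = 0.0996) and eater (adjusted p = 0.113) without the 3 ovary libraries that stand apart. NimC1 was also lost without ovary mutant 2 libraries 1 and 2 (-1.14, adjusted p = 0.0558). The call for eater was also lost without wild-type brain library 1 (adjusted p = 0.0712), wild-type ovary library 1 (0.0797) or 2 (0.0981) or ovary mutant 1 library 3 (0.0598), and its wild-type ovary side holds 7 counts. The largest difference by size was that of NimC4 (-4.29 ± 1.37, SE), which was not called (edgeR adjusted p = 0.0835) and has no count in wild-type ovaries, so its size depends on the prior count. It was called without ovary mutant 1 library 1 (adjusted p = 0.0358). Pxn (-0.53 ± 0.30, SE) was not called either, but was without the 3 ovary libraries that stand apart (-0.66, adjusted p = 0.0364). NimC2 (-1.14 ± 0.55), Sr-CI (-0.45 ± 0.32), crq (-0.21 ± 0.07) and drpr (-0.05 ± 0.09) were not called (SE).

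After auxin in S2 cells, no member was called at 24 h or 48 h by edgeR without a replicate term, where 0.0979% and 0.112% of 7152 genes were called. At an unadjusted edgeR p under 0.05, 143 of the 7152 genes passed at 24 h and 152 at 48 h, among them NimC4 at both times. Both shares were below the 0.05 that this threshold alone would let through. DESeq2 called no member. Libraries with the same replicate number deviated together, and a fit with the number as a block called NimC4 higher and Pxn lower at both times. In that fit the share of all genes called higher was 1.05% at 24 h and 1.54% at 48 h, and the share called lower 0.881% and 1.13%.

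NimC4 had 0 and 0.608 CPM in untreated cells, 1.24 and 4.63 CPM at 24 h and 2.22 and 5.53 CPM at 48 h, for replicate numbers 1 and 2 in turn. In counts these were 0 and 4, 11 and 31, and 20 and 40. Both numbers were lowest untreated and highest at 48 h. Without a block the log2 change was 3.26 ± 1.23 at 24 h (SE, edgeR adjusted p = 1.00) and 3.67 ± 1.21 at 48 h (adjusted p = 1.00). With the block it was 3.26 ± 0.74 (edgeR adjusted p = 0.00174) and 3.74 ± 0.71 (adjusted p = 3.06e-05). Since 1 untreated library was at 0, the fitted size depends on the prior count. Leaving out 1 library, without a block, gave 2.06 (without 24 h library 2) to 7.51 (without untreated library 2) at 24 h and 2.62 (without untreated library 1) to 7.93 (without untreated library 2) at 48 h. In summed counts the level was 9.67-fold that of untreated cells at 24 h (95% counting interval 3.51 to 37.1) and 13.2-fold at 48 h (4.91 to 50.1). Such intervals cover counting error only and leave out the spread between libraries.

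Pxn had 523 and 292 CPM in untreated cells, 325 and 194 CPM at 24 h and 333 and 217 CPM at 48 h. The auxin libraries lay below the untreated library of the same number, but library 1 at either time lay above untreated library 2. The log2 change was -0.65 ± 0.38 at 24 h (SE, edgeR adjusted p = 1.00) and -0.57 ± 0.38 at 48 h (adjusted p = 1.00) without the block. Leaving out 1 library, without a block, gave -1.075 (without 24 h library 1) to -0.178 (without untreated library 1) at 24 h and -0.94 (without untreated library 2) to -0.093 (without untreated library 1) at 48 h. With the block the log2 change was -0.64 ± 0.11 (edgeR adjusted p = 1.51e-06) at 24 h and -0.54 ± 0.11 (adjusted p = 7.5e-05) at 48 h.

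**Figure D5:**
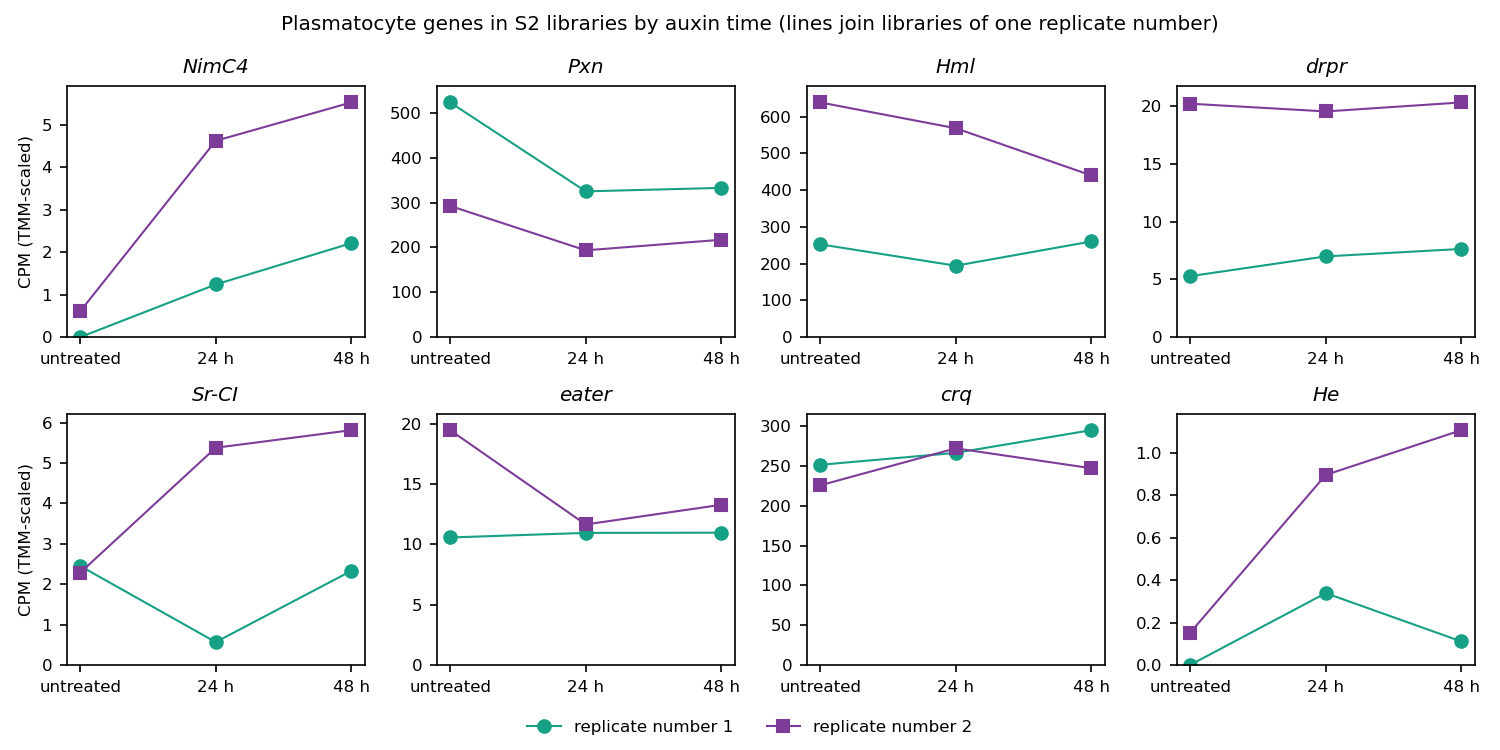
CPM of 8 of the genes in S2 libraries is plotted against auxin time (untreated, 24 h, 48 h), with lines joining libraries of replicate number 1 (circles) and 2 (squares) and each axis from 0. NimC4 is higher at both times than untreated in each number and Pxn lower, while Hml and drpr are higher in number 2 than in number 1 at every time.

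Other members differed between the replicate numbers. Hml had 253 and 639 CPM in untreated cells, 194 and 568 CPM at 24 h and 260 and 440 CPM at 48 h. It was higher in library 2 of each group, and its log2 change with the block was -0.26 ± 0.12 at 24 h and -0.23 ± 0.12 at 48 h (SE), not called. For drpr the levels were 5.29 and 20.2 CPM untreated, 6.998 and 19.6 CPM at 24 h and 7.65 and 20.3 CPM at 48 h. Library 2 again held the higher level in each group, and the treatment was not called with the block.

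The levels of crq were 251 and 226 CPM untreated, 266 and 272 CPM at 24 h and 295 and 247 CPM at 48 h, with log2 changes of 0.18 ± 0.16 at either time (SE). Those of eater were 10.6 and 19.5 CPM untreated, 10.95 and 11.7 CPM at 24 h and 10.97 and 13.3 CPM at 48 h, and those of Sr-CI 2.45 and 2.28, 0.564 and 5.38, and 2.33 and 5.81 CPM. None of these 3 genes was called with or without the block. He had 1 count in the untreated libraries together and 9 at each time, a ratio of 8.29 at 24 h (95% counting interval 1.149 to 363) and 7.94 at 48 h (1.10 to 348). These intervals leave out the spread between libraries, and He had too few counts to be tested in S2 cells. In the isoform used, NimC1 and NimC2 had at most 3 counts per group.

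The 2 genes called with the block in S2 cells were not called in either tissue without a replicate term, although Pxn in mutant 2 ovaries was called higher under the alternatives given above and with DESeq2. In brain NimC4 had log2 changes of -0.01 and -0.00 and Pxn had log2 changes of -0.15 and -0.16, and in ovary Pxn had 0.06 and 0.65, and NimC4 was not tested in ovary. The difference between S2 cells and tissues was not tested, since the assays differ and the S2 depletion lasted at most 48 h.

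Over the 15 brain and ovary libraries, after each tissue's mean was subtracted, the mean profile of the 6 members tested in both tissues was most like that of sel (Pearson r = 0.946), Ppn (0.928), the crystal cell enzyme PPO1 (0.899), the non-muscle myosin zip (0.852) and the actin Act42A (0.845), among 7913 genes. These correlations share the libraries and their depth and are a description. In brain sel had log2 changes of -0.15 in mutant 1 and -0.19 in mutant 2, not called, and Act42A fell by 0.26 and 0.36 on the log2 scale.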

How the data were processed

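The S2 table holds raw counts per transcript, deposited by the authors, from a kit that reads 3′ ends per the labels' protocols. For the tissues the authors deposited estimated counts per gene, from rRNA-depleted RNA and a directional kit per the labels' protocols. The submitters' processing notes name build dm3, and Salmon 1.2.1 with Trim Galore 0.6.2 for the tissues. No source used here names the S2 aligner. Estimated counts were rounded. Of 26009 S2 transcripts 25653 were matched to genes of annotation build BDGP6, and the other 356 (0.361% to 0.418% of counts) stayed out. In S2 the isoform with the most counts stood for its gene, because isoforms share 3′ reads. Gene names and positions are of BDGP6, and no dm3 coordinates were used. Of the tissue genes, 235 were matched by symbol and 59 kept as in the file.

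Groups were compared with edgeR 4.0.16 (R 4.3.3), using the quasi-likelihood F test after TMM scaling with robust dispersion, filterByExpr at a minimum count of 10 and Benjamini-Hochberg adjusted p under 0.05 over all genes tested. Each system entered 1 fit without a replicate term, and brain and ovary entered a joint fit of 15 libraries for differences between tissues. SEs are the absolute change over the square root of F. Ratios and bounds between tissues use summed counts over jointly scaled library sizes, which makes them unequal to ratios of the printed CPM. DESeq2 1.42.0, RLE scaling, no filter, a replicate block, summed isoforms and leaving out libraries were tried. The tests were checked on simulated data.

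The design text calls the replicates biological without naming separate cultures or dissections, and p-values then reflect only how these samples vary, which may be technical. Same-numbered S2 libraries deviated together (r of deviations from group means 0.587 to 0.719), so their numbers were taken as paired from the data, not from the labels. The members, the marker lists and the tests were chosen with earlier results of these data known. All 10 members are named. From each list, genes called in both mutants of a tissue with the same sign are named, at most 4 per list, beside genes that were named after their values were seen.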

Additional observations from a re-analysis of the deposited data

Results flagged for a closer look

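For 3 genes the mutant effect differed between brain and ovary by the test of that difference in the joint edgeR fit. The log2 effect, brain minus ovary, was -1.61 ± 0.29 for Hml (SE, edgeR adjusted p = 0.00549), -1.26 ± 0.26 for NimC1 (adjusted p = 0.0103) and -2.14 ± 0.53 for eater (adjusted p = 0.0272). In brain Hml fell in both mutants, and in ovary its log2 changes were 0.51 in mutant 1 and 1.41 in mutant 2. For eater the wild-type ovary libraries hold 7 counts in all. It had too few counts to be tested within ovary and entered the joint fit only through its brain counts. The calls for NimC1 and eater were lost without the 3 ovary libraries that stand apart. With 2 or 3 libraries in every group, no member's values were searched for an outlying library.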

How the results depend on the processing

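The count of members called depended on the setting in each comparison except brain mutant 2 and ovary mutant 1. In S2 cells, 0 at each time became 1 without a low-count filter (NimC4) and 2 with the replicate block (NimC4 and Pxn) at 24 h and at 48 h. In ovary mutant 2, 1 became 2 with DESeq2 or without the 3 libraries that stand apart (Hml and Pxn). Leaving out mutant 2 libraries 1 and 2, those with the highest Hml, left 1 library and a log2 change of Hml of 0.87. Leaving out 1 library gave 3 to 5 in brain mutant 1, 1 to 2 in ovary mutant 2 and 1 to 4 for the brain minus ovary effect. Without the 3 ovary libraries that effect was called for Hml and Pxn, and without ovary mutant 2 libraries 1 and 2 for Hml and eater. Between wild-type brain and ovary, 9 became 10 without a filter or with DESeq2, with He added. In brain, ovary and the joint fit the replicate block changed no call of a member, and the numbers there share only a number (same-number r as low as 0.0454 in brain and -0.337 in ovary).

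Of 687 recomputed values, 634 kept direction and side of the threshold, 13 lost a call, 11 gained one and 29 changed sign. All sign changes were of changes that were not called. With the block Sr-CI at 24 h was -0.019. Without the 3 ovary libraries, NimC1 in mutant 1 was -0.18, Pxn in mutant 1 -0.015, Sr-CI in mutant 2 -0.002, crq in mutant 2 -0.02 and the brain minus ovary effect of drpr 0.005. Pxn in mutant 2 was -0.058 without libraries 1 and 2. Leaving out 1 library gave, at 24 h in S2 cells, -0.79 to 0.08 for eater, -1.19 to 0.58 for Hml, -2.03 to 1.18 for Sr-CI and -0.85 to 1.29 for drpr. At 48 h it gave -0.69 to 0.18, -0.87 to 0.46, -0.024 to 1.29 and -0.73 to 1.38 for the same genes. For NimC4 in brain it gave -0.14 to 0.13 in mutant 1 and -0.16 to 0.14 in mutant 2. In ovary it gave -0.063 to 0.54 for NimC1 and -0.10 to 0.14 for Pxn in mutant 1, and -0.20 to 0.21 for Sr-CI in mutant 2, and for the brain minus ovary effect of drpr -0.091 to 0.022. The cause was not tested.

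Over all genes, the count called in S2 cells was 7 at 24 h and 8 at 48 h, against 26 and 36 without a filter, 138 and 191 with the block and 15 and 17 with DESeq2. In ovary mutant 2 it was 1340, against 614 without the 3 libraries and 410 without libraries 1 and 2, and for the brain minus ovary effect 631, against 1007 with DESeq2. Depth limits He everywhere, NimC1, NimC2 and NimC4 in S2 cells, and NimC2, NimC4, eater, NimC1 and Sr-CI in ovary, where a library held 21 counts or fewer.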
